A study of Mus musculus with 4 samples.

Results

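The stretch described here is the part of mouse chromosome 4 from position 135300000 to 136500000 in mm10 that holds *Id3* and *E2f2*, and its members are all ATAC-seq peaks that lie there in the 4 deposited peak lists. There were 736 of them among 489558 peaks on chromosomes 1 to 19, X and Y, and the 4 libraries held 101, 407, 119 and 109 of them. A row of 4 values always gives the libraries in the order SMC line 1, SMC line 2, non-SMC line 1, non-SMC line 2. The stretch was chosen by the raised local background of SMC line 2, so the values of that library within it are a description and were not tested.

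ATAC-seq reads out open chromatin from the places where a transposase inserts into DNA. The study compared 2 SMC lines, cells with high NCAM and low or absent CD44 that grew in suspension, with 2 non-SMC lines, cells with low NCAM and high CD44 that grew attached. All were untreated cell lines that had been sorted from primary lung tumors of *RP* mice, in which Cre delivered by adenovirus deletes floxed *Rb1* and *Trp53*, so both types carry this deletion. The labels give a mixed C57Bl/6, Balb-c and S129 background, call the lines paired and number them 1 and 2, and each line gave 1 library.

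Id proteins such as ID3 lack the basic region that binds DNA, and they hold back basic helix-loop-helix factors by pairing with the E proteins that these factors need. Factors of this kind bind E-boxes. E2F2 is an activating member of the E2F family, which drives genes of DNA synthesis and is restrained by the pocket protein RB1, the product of the gene deleted in these tumors.

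Sequences of 6 places in the stretch are given first, because the peaks at them are described below. The base letters come from the GRCm38 assembly, which is mm10, and the plus strand is printed 5′ to 3′. Capitals mark any match, on either strand, to TGANTCA (AP-1), GGAATG (TEAD), CANNTG (E-box) or GGCGGGA (E2F), and no 2 of the marked matches overlap. The first sequence is the 250 bases before the RefSeq start of *E2f2*, chr4:136172024-136172273, and the others are 100 bases on each side of a summit. The site upstream of *Id3*, chr4:136140413-136140613, was called in all 4 libraries. The SMC-only site upstream of *Grhl3*, chr4:135596074-135596274, was called in the 2 SMC lines and in no non-SMC line. The last 3 lie inside the raised blocks of SMC line 2 and were called in the 2 non-SMC lines and in no SMC line. Of the 5 such sites in the blocks, these 3 were printed because they hold the AP-1 letters near the summit. They lie upstream of *Ifnlr1* (chr4:135676585-135676785), upstream of *Id3* (chr4:136123433-136123633) and in an intron of *Asap3* (chr4:136210988-136211188).
E2f2 promoter: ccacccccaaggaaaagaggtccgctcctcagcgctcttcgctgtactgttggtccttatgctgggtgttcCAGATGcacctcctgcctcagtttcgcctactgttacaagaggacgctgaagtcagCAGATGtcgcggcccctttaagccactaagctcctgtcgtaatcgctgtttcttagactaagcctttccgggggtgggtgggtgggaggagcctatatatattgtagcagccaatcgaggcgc
site upstream of Id3: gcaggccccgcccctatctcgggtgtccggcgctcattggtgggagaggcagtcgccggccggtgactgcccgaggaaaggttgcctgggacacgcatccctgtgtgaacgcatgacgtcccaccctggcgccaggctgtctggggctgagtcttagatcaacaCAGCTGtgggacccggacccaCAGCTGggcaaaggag
SMC-only site near Grhl3: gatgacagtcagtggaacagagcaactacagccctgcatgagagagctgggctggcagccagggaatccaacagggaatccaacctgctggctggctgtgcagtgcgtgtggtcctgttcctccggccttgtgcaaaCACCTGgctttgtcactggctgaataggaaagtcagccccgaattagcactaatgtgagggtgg
non-SMC-only site near Ifnlr1: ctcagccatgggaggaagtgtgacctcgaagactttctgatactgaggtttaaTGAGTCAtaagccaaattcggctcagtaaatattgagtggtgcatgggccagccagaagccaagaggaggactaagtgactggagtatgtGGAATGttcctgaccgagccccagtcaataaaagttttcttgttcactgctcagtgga
non-SMC-only site near Id3: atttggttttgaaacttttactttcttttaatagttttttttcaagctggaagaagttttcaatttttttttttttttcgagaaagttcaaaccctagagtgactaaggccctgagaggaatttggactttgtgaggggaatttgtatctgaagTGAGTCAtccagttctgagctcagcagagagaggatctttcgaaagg
non-SMC-only site near Asap3: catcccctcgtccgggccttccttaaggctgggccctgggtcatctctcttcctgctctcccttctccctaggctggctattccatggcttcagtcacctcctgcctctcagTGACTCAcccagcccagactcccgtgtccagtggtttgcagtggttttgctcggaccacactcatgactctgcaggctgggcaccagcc
The *E2f2* promoter and the site upstream of *Id3* each held 2 E-boxes, with the letters CAGATG and CAGCTG. An E-box stood in 66.2% of 32851 RefSeq promoters cut in the same way as that of *E2f2*, and the AP-1 letters in 6.75%. Within 100 bases of the summits outside the stretch, an E-box stood near 72.3% of SMC line 2 peaks. The AP-1 letters stood near 28.7% of those of non-SMC line 1, the library whose summits gave the last 3 sequences. None of the 6 sequences held the E2F letters, which stood in 9.75% of all promoters. They stood near 2.67% and 2.91% of the summits outside the stretch in SMC line 2 and non-SMC line 1.

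Each peak of a list came with a fold enrichment, the ratio of the pileup (the number of fragments over the summit) to the local background around it. Pileup and background were recovered from this ratio and its p-value for all peaks of the 4 lists. The lowest background of a library, which follows its depth, was 0.456, 1.54, 1.49 and 0.639 fragments in the 4 libraries. The background of a peak divided by this lowest value is called the background ratio, and a pileup divided by it the relative pileup. The labels were checked against promoters of known genes. *Chga*, a gene of neuroendocrine granules, and *Epcam*, an epithelial gene used as a marker in the sort, had a promoter peak in the 2 SMC lines and in no non-SMC line. The neuroendocrine genes *Ncam1*, *Sox11* and *Syp* had one in all 4 libraries. Of the 7 genes in the list of SMC markers, not all of which are named here, 6, 7, 5 and 4 had a promoter peak in the 4 libraries. Promoter peaks of this list thus did not split the types cleanly. Of 4 genes of the non-SMC state (*Cd44*, *Vim*, *Wwtr1* and *Yap1*), SMC line 1 had a promoter peak at 1 and the other libraries at 4. At the peak with the highest fold enrichment of each promoter, the pileup was at most 9 in SMC line 2 and up to 76 in non-SMC line 1. Of the leukocyte, endothelial and fibroblast genes *Ptprc*, *Pecam1* and *Col1a1*, the SMC lines had a promoter peak at *Col1a1*, non-SMC line 1 at all 3 and non-SMC line 2 at *Pecam1* and *Col1a1*. Their part in the results below was not tested.

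SMC line 2 stood apart in the number of its peaks. The stretch held 84.2, 339, 99.2 and 90.8 peaks per Mb in the 4 libraries. Outside the stretch the same lists held 33.4, 56.4, 42.5 and 47.2 peaks per Mb. Over all listed peaks the density of the stretch was thus 2.52, 6.02, 2.33 and 1.92 times that of the rest of the genome. Restricted to peaks whose −log10 q reached 5, it was 0.869, 12.5, 1.96 and 1.09 times, from 5, 144, 38 and 12 members, so that SMC line 1 was then below the rest of its genome. The log2 values that follow are over all listed peaks. The log2 of the density ratio was 1.96 ± 0.89 in SMC lines and 1.08 ± 0.20 in non-SMC lines (SD, n = 2), and the difference of 0.88 was smaller than the SD between the SMC lines. Within line pair 1 the difference was 0.11 and within line pair 2 it was 1.64, and without SMC line 2 it was 0.25. The direction within line pair 1 turned in 2 settings, with ratios of 0.869 in the SMC line and 1.96 in the non-SMC line under the limit on q, and of 2.11 and 2.79 against the rest of chromosome 4. No test was made, since the smallest two-sided p that an exact permutation test of 2 against 2 libraries allows is 0.333.

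The local background showed the same library apart. The median background ratio of the members was 1.63, 51.4, 1.23 and 1.18 in the 4 libraries, against 1.34, 1.08, 1.17 and 1.09 for all other peaks of the same lists. The highest ratio of a member was 97.7 in SMC line 2 and 3.85, 4.20 and 2.88 in SMC line 1 and non-SMC lines 1 and 2. A ratio of at least 5 was reached by 341 of 407 members in SMC line 2 and by 0 members in each of the other libraries. Of the peaks outside the stretch, 1.03%, 0.153%, 1.35% and 0.464% reached it in the 4 libraries, the lowest share being that of SMC line 2. Of the 100 kb windows of SMC line 2 with at least 10 peaks, 0.131% had a median ratio of at least 5, which are 9 of 6863, and 7 of these 9 lay in the stretch. The other 2 were neighbours between positions 123000001 and 123200000 of the same chromosome, with medians of 28.2 and 39.8. SMC line 1 had 24 such windows, 16 of them on chromosome 4, and 0 in the stretch. Non-SMC lines 1 and 2 had 4 and 3 such windows, with 0 on chromosome 4.

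**Figure D1:**
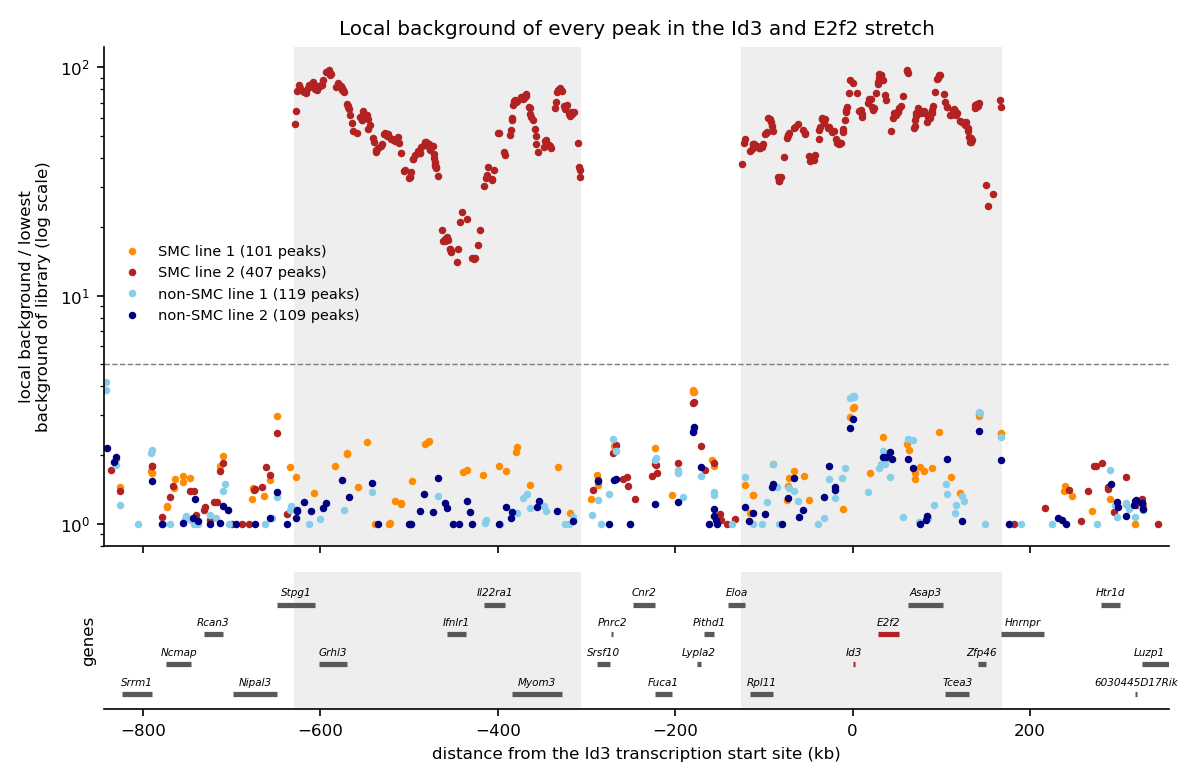
Background ratio (local background over the lowest background of the library, log scale) of each of the 736 peaks against distance from the Id3 transcription start site in kb, with 26 of the 28 protein-coding genes beneath, shading for the 2 blocks and a dashed line at a ratio of 5. The 341 peaks of SMC line 2 inside the blocks lie between 14.0 and 97.7, and all peaks of the other 3 libraries lie at or below 4.20.

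The raised peaks of SMC line 2 did not fill the stretch. They formed 2 blocks, runs of neighbouring peaks with a ratio of at least 5, and no peak inside either block fell below 5. Block 1 ran over 322 kb between the summits at 135514722 and 135836354 and held 182 peaks with a median ratio of 51.0. Block 2 ran over 292 kb between the summits at 136018835 and 136310796 and held 159 peaks with a median ratio of 59.7. In the interval between them, 22 peaks had a median ratio of 1.65 and a highest ratio of 3.42. The 27 peaks of the left flank and the 17 peaks of the right flank had medians of 1.39 and 1.29. Block 1 starts inside *Stpg1* and holds the starts of *Grhl3*, an epithelial transcription factor, of *Ifnlr1* and *Il22ra1*, which code for cytokine receptor chains, and of *Myom3*, a muscle sarcomere gene. Block 2 holds those of *Eloa*, *Rpl11*, *Id3*, *E2f2*, *Asap3*, *Tcea3*, *Zfp46* and *Hnrnpr*. The genes that start in the interval include *Srsf10*, *Pnrc2*, *Cnr2*, *Fuca1*, *Lypla2* and *Pithd1*.

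All 4 edges were steps between neighbouring peaks. At the left edge of block 1 the ratio went from 1.11 at 135506203 to 56.2 at 135514722, across 8.52 kb of an intron of *Stpg1*, and the pileup from 6 to 198. The next 3 peaks had ratios of 64.4, 78.8 and 84.0. At its right edge the last peak had a ratio of 33.2 and the first one beyond, 14.2 kb away at 135850523 between *Myom3* and the splicing factor gene *Srsf10*, had 1.404. At the left edge of block 2 the ratio went from 1.04 at 136011006 to 37.6 at 136018835, both within *Eloa*, which codes for a subunit of the transcription elongation factor Elongin. At its right edge the last peak was the promoter of *Hnrnpr*, an RNA-binding protein gene, with a ratio of 67.2, and the next peak, 14.5 kb away in an intron of *Hnrnpr*, had 1.00. The edges are known only to the distance between such neighbours, and the caller takes the background over a window around each peak whose width the methods do not give. In the other 3 libraries no peak of the stretch, or of 300 kb on each side of it, began such a run. The members of SMC line 2 nearest to the limits of the stretch had ratios of 1.71 and 1.00, and the nearest peaks outside had 1.67 and 1.00.

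Within the blocks the ratio was uneven. In windows of 25 kb the median was 79.0 to 83.0 over the first 3 windows of block 1 and fell to 17.3 and 18.0 between 135675001 and 135725000, where *Ifnlr1* lies. It was 71.2 between 135750001 and 135775000, at the start of *Myom3*. In block 2 the medians ran from 46.0 to 71.1 across the full windows, and the highest of them covered the start of *E2f2*. Single peaks fell to 24.6 at 136296484, between *Zfp46* and *Hnrnpr*. The other libraries also had their own small local rises, such as ratios around *Id3* of 2.95 to 3.23 (SMC line 1), 3.57 to 3.62 (non-SMC line 1) or 2.63 to 2.88 (non-SMC line 2).

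Block peaks of SMC line 2 were dense, wide and low over their surroundings. The blocks together held 53.6 peaks per 100 kb in SMC line 2 against 11.7 in the rest of the stretch. The same 2 values were 9.28 and 7.45 in SMC line 1. They were 9.75 and 10.1 for the first non-SMC line and 9.75 and 8.34 for the second. Neighbouring summits stood a median of 1.28 kb apart in block 1 and 1.34 kb in block 2, and peaks covered 23.6% and 23.2% of the bases, against 1.36% in the rest of the genome. The median width was 314.5 bp in block 1 and 293 bp in block 2, against 178 bp elsewhere. The fold enrichment was below 2 in 293 of the 341 block peaks, or 85.9%, and in 0.119% of the peaks outside the stretch. The median fold enrichment of all members was 3.22, 1.68, 3.49 and 3.05, the second value being that of SMC line 2. The median rank of these members within their own lists was the 0.182 percentile in SMC line 2 and between the 39.6 and 45.5 percentile in the other libraries. In contrast, the median pileup of the members was 133 fragments in SMC line 2 and 5, 10 and 4 in SMC line 1 and non-SMC lines 1 and 2. Of the 100 peaks with the highest pileup in SMC line 2, 77 lay in the stretch, and of the 100 with the highest fold enrichment, 0 did. A peak over a higher background needs a higher pileup and can be called at a lower fold enrichment. These values are therefore not independent of the raised background by which the stretch was chosen.

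**Figure D2:**
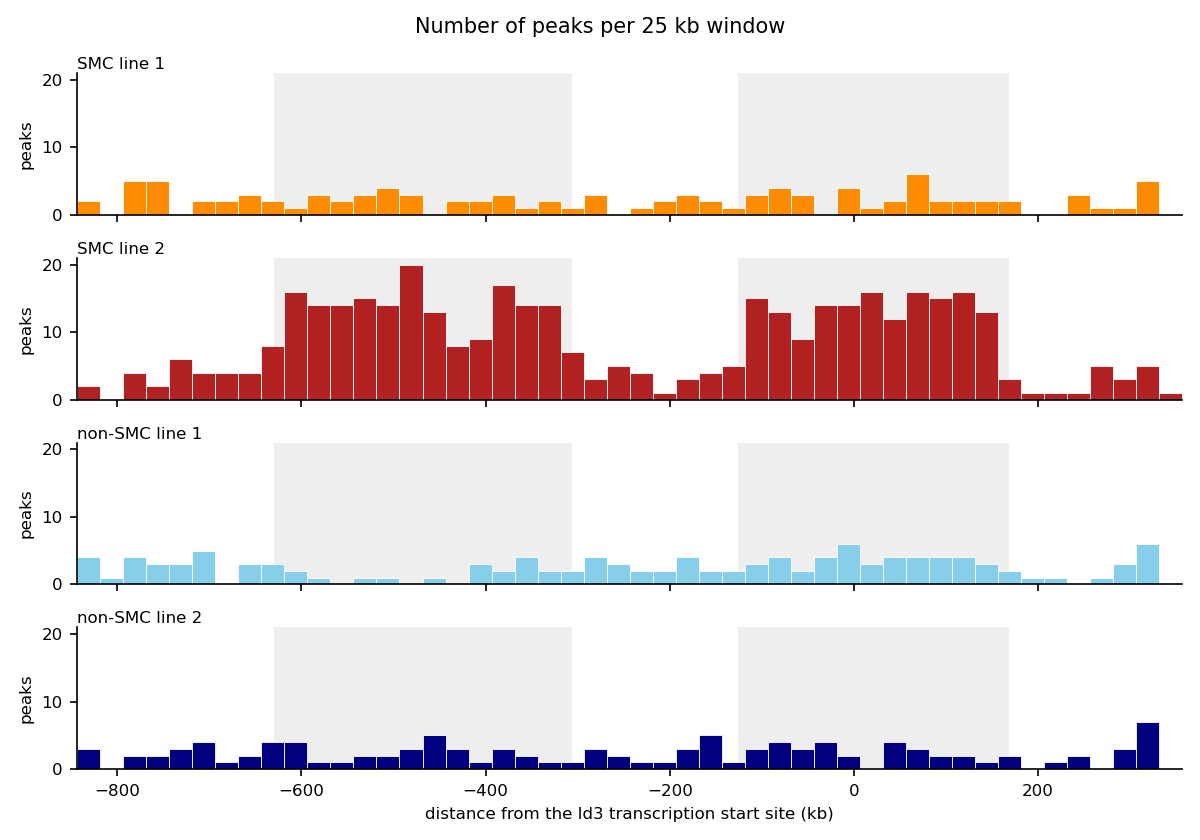
Number of peaks per 25 kb window in each library against distance from the Id3 transcription start site in kb, with shading for the 2 blocks of SMC line 2. SMC line 2 reaches 20 peaks in a window of block 1, and the other 3 libraries stay at 7 or fewer in every window.

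At 24 sites of the stretch all 4 libraries had a peak, and 11 of these sites lay in the blocks. There the relative pileup of SMC line 2 was a median of 18.0 times the mean of the other 3 libraries, with a range of 6.87 to 26.9. At the 13 sites of the stretch outside the blocks it was 0.678 times that mean, with a range of 0.450 to 1.24, and at 13583 such sites in the rest of the genome 0.614 times. The blocks were defined by the background ratio of SMC line 2, and a peak over a high background needs a high pileup. That the 2 ranges within the stretch do not overlap thus follows from this choice. The fold enrichment of SMC line 2 over the mean of the others was 0.811 in the blocks, 0.821 outside them and 0.889 in the rest of the genome.

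The promoter of *Hnrnpr* had the highest pileup of the stretch in SMC line 2. It had 18, 1001, 47 and 19 fragments in the 4 libraries, with fold enrichments of 8.90, 9.61, 10.6 and 9.05. Thus SMC line 2 was far above the others in pileup and lay among them in fold enrichment. The promoter of *Eloa* had 12, 718, 39 and 13 fragments, with fold enrichments of 7.75, 9.46, 11.8 and 7.97. The promoter of *Rpl11*, a ribosomal protein gene, had 5, 405, 28 and 9 fragments, with fold enrichments of 3.27, 4.94, 7.78 and 5.12. *Asap3*, which codes for a GTPase-activating protein of ARF proteins, had 7, 601, 21 and 9 fragments, and *Zfp46*, a zinc finger protein gene, had 11, 510, 34 and 15. At the 13 sites in the interval and flanks the pileups of SMC line 2 lay between 10 and 42 fragments. *Srsf10* had 7, 21, 17 and 9 fragments, and *Fuca1*, a lysosomal fucosidase gene, had 14, 14, 26 and 8. The peak at the shared promoter of *Stpg1* and *Nipal3*, just left of block 1, had 17, 42, 24 and 8.

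**Figure D3:**
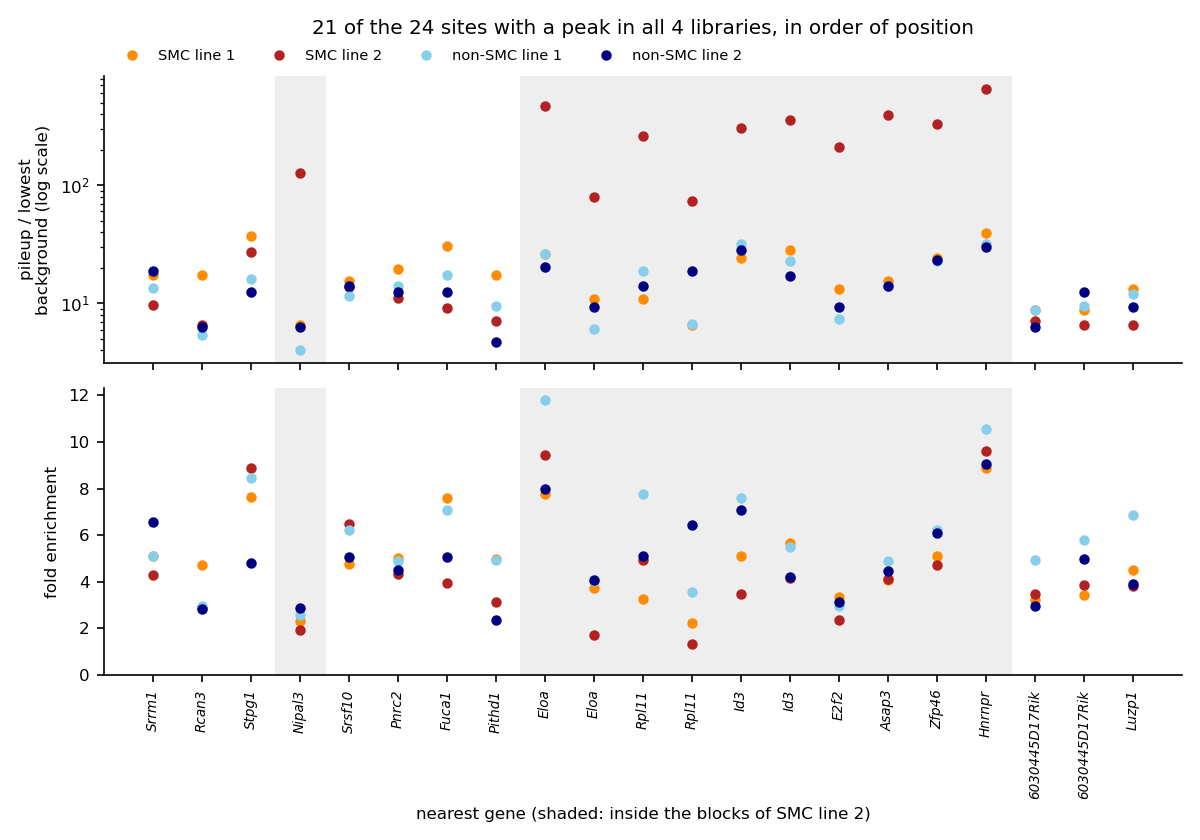
Relative pileup (pileup over the lowest background of the library, log scale, top) and fold enrichment (bottom) at 21 of the 24 sites with a peak in all 4 libraries, 1 point per library, in order of position and named by the nearest gene, with shading for sites in the blocks. SMC line 2 is 6.87 to 26.9 times the mean of the others in relative pileup at the shaded sites and 0.450 to 1.24 times elsewhere.

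*Id3* covers positions 136143497 to 136145755 on the plus strand and lies in block 2. Within 5 kb of the gene the 4 libraries had 3, 4, 4 and 2 peaks. The site upstream of *Id3* printed above had its summit at -2984, -2984, -2982 and -2944 bases from the start. Its pileup was 11, 472, 47 and 18 fragments, and its fold enrichment 5.12, 3.47, 7.61 and 7.09. This site thus stood in every line, with the lowest fold enrichment in SMC line 2, where the background ratio was 88.0. The highest peak over the gene itself had 13, 549, 34 and 11 fragments and fold enrichments of 5.65, 4.17, 5.49 and 4.22. In SMC line 2 it was 1 broad peak from 136143597 to 136145170. Over the gene the other libraries had 2, 3 and 1 narrower peaks, and SMC line 2 had 2 further peaks near the gene with fold enrichments of 1.67 and 1.59.

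*E2f2* covers positions 136172394 to 136196057 on the plus strand, 28.9 kb beyond the start of *Id3*. Within 5 kb of the gene the 4 libraries had 2, 20, 7 and 4 peaks. The 20 peaks of SMC line 2 had pileups of 141 to 322 fragments over background ratios of 52.4 to 93.9, and a median fold enrichment of 1.52 with a highest value of 2.36. The peaks of the other libraries had at most 7, 20 and 9 fragments, with median fold enrichments of 3.78, 3.85 and 3.50. Within 3 kb of the *E2f2* start, SMC line 2 had 7 peaks, non-SMC line 1 had 2, and SMC line 1 and non-SMC line 2 had 0. One of the 7, with its summit at -267 bases from the start, lies in the promoter sequence printed above. The only site of *E2f2* called in all 4 libraries lay in an intron, between 136177355 and 136178357, with 6, 322, 11 and 6 fragments and fold enrichments of 3.35, 2.36, 2.94 and 3.11.

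**Figure D4:**
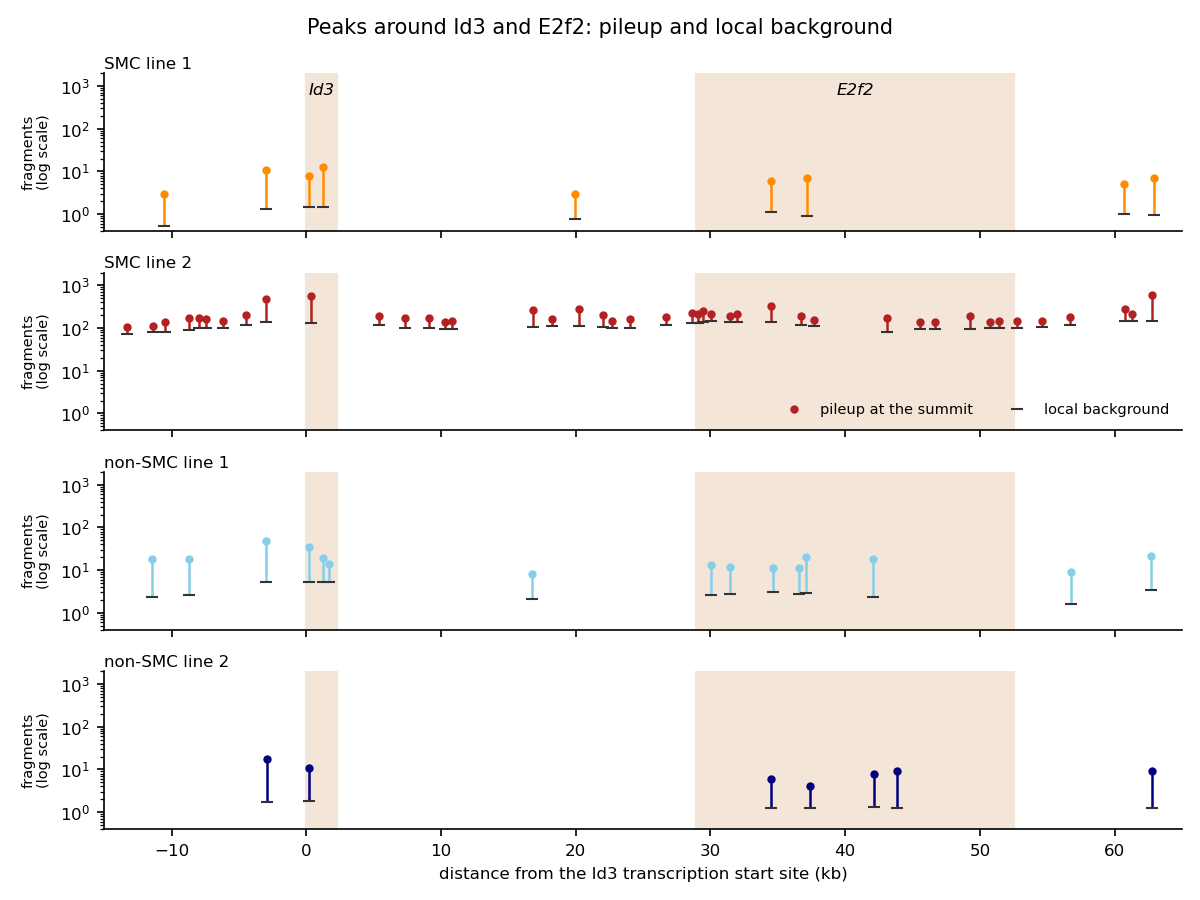
Pileup at the summit (points) and local background (dashes), in fragments on a log scale, of each peak around Id3 and E2f2 (shaded) in the 4 libraries against distance from the Id3 transcription start site in kb. In SMC line 2 the local background lies above 70 fragments, with the E2f2 peaks at 1.37 to 2.36 times their background and the 2 highest Id3 peaks at 3.47 and 4.17 times. In the other libraries no pileup is above 47 fragments.

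For the 2 families, each promoter is represented by its peak with the highest fold enrichment, and further peaks at the same promoter were not compared. Among the genes other than *Id3* and *E2f2*, no such peak had a background ratio of 5 or more in SMC line 2, while some had in other libraries. All 7 genes of the Id and E proteins (*Id1* to *Id4*, *Tcf3*, *Tcf4* and *Tcf12*) had a promoter peak in all 4 libraries. In SMC line 2 this peak had a background ratio of 85.1 at *Id3*, whose upstream site had 88.0, and of at most 3.81 at the other 6. In SMC line 1 the ratio of this peak was 15.7 at *Id1*, and in non-SMC line 2 the highest such ratio, also at *Id1*, was 5.47. Of 13 genes of the E2F factors, their TFDP partners and the pocket proteins, 12, 13, 13 and 11 had a promoter peak in the 4 libraries. *E2f2* was the gene without one in SMC line 1, and *E2f2* and *E2f6* were those without one in non-SMC line 2. For this list the ratio of the same kind of peak in SMC line 2 was 89.8 at *E2f2* and at most 3.84 at the other 12. Another peak within 3 kb of the *E2f2* start had 93.9. In SMC line 1 *E2f1* had 5.85 and *E2f3* 5.96, and in non-SMC line 1 *E2f3* had 5.81.

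Of the 28 protein-coding genes of the stretch, 21, 27, 24 and 25 had a peak within 3 kb of the start in the 4 libraries, which are 75.0%, 96.4%, 85.7% and 89.3%. Over all 21938 protein-coding genes these shares were 62.2%, 69.3%, 64.6% and 64.9%, and no test of the difference was made. With only the peaks of −log10 q 5 or more, 6, 17, 17 and 6 of the 28 promoters had one. In all 4 libraries 19 of the 28 promoters had a peak. No promoter of the stretch was SMC-only, a pattern that 3.08% of all promoters had. *Cnr2*, the gene of a cannabinoid receptor in the interval, was the 1 non-SMC-only promoter, a pattern of 2.45% of all promoters. Its peaks lay about 3 kb before the start, with 6 and 4 fragments and fold enrichments of 2.82 and 3.05 in non-SMC lines 1 and 2. *Htr1d*, the gene of a serotonin receptor in the right flank, had a promoter peak in SMC line 2 alone, with 9 fragments and a ratio of 1.85. In the blocks all 12 promoters had a peak in SMC line 2, against 8, 9 and 10 in SMC line 1 and non-SMC lines 1 and 2. SMC line 2 held 53.6 peaks per 100 kb there, and how many promoter peaks this density accounts for was not tested.

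Among the 12 block promoters of SMC line 2, the 4 with the lowest fold enrichment were those of *Ifnlr1*, *Il22ra1*, *Tcea3* and *E2f2*. *Ifnlr1* had no promoter peak in SMC line 1 or non-SMC line 1, 51 fragments with a fold enrichment of 1.86 in SMC line 2, and 6 fragments with 4.01 in non-SMC line 2. *Il22ra1* had 95 fragments with a fold enrichment of 2.03 in SMC line 2, and *Tcea3*, a transcription elongation factor gene, had 202 with 1.85. *E2f2* had 254 fragments with a fold enrichment of 1.83. *Tcea3* had no promoter peak in SMC line 1, while non-SMC line 1 had 11 fragments with 3.73 and non-SMC line 2 had 19 with 8.96.

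The 4 lists merged into 519 regions in the stretch. Of these, 26 were SMC-only, called in the 2 SMC lines and no non-SMC line, which is 5.01%, beside 4.37% of all regions. A further 12 were non-SMC-only, which is 2.31%, beside 7.33% of all regions. SMC line 2 alone had a peak in 291 regions, or 56.1%, against 28.4% in the rest of the genome. These 291 count among the 519 by which each share is divided, and so lower the SMC-only and non-SMC-only shares. A non-SMC peak that overlaps a peak of SMC line 2 is also not counted as non-SMC-only. How much of the low non-SMC-only share this accounts for was not tested. Of the 26 SMC-only regions 25 lay in the blocks, where SMC line 2 peaks covered more of the bases than elsewhere. In SMC line 1 these 26 regions had low pileups of 3 to 9 fragments and a −log10 q of at most 3.65. The share of peaks of the other lists that overlapped an SMC line 2 peak was higher in the blocks than in the rest of the genome. It was 63.0% of SMC line 1 peaks in block 1, 93.8% in block 2 and 39.3% in the rest of the genome. For non-SMC line 1 it was 73.7%, 81.4% and 23.8%, and for non-SMC line 2 it was 59.4%, 63.3% and 19.7%. In the interval between the blocks, where the background was not raised, the share was 66.7%, 57.9% and 60% in SMC line 1 and non-SMC lines 1 and 2, from 12, 19 and 15 peaks, which for SMC line 1 and non-SMC line 2 is above that of block 1. How much of this overlap the covered length accounts for was not tested.

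The SMC-only site near *Grhl3* printed above, with its middle at -22585 bases from the start of the gene, had 9 fragments with a fold enrichment of 4.89 in SMC line 1 and 311 with 3.24 in SMC line 2. The *Grhl3* promoter itself had an SMC-only region with 6 fragments in SMC line 1 and 259 in SMC line 2, although non-SMC line 2 had another peak within 3 kb. The 5 non-SMC-only regions inside the blocks lay among raised peaks of SMC line 2, the nearest of which stood 739 to 1421 bases away with background ratios of 33.5 to 63.5. The one near *Ifnlr1* had 22 and 19 fragments with fold enrichments of 7.76 and 9.95 in non-SMC lines 1 and 2. The one in the *Asap3* intron had 32 and 8 fragments with fold enrichments of 7.39 and 4.24. The one upstream of *Id3*, at -19905 bases from its start, had 18 and 5 fragments with fold enrichments of 6.49 and 3.17, and that near *Grhl3*, with neither AP-1 nor TEAD letters, had 20 and 13 with 6.88 and 7.13. The one near *Srsf10*, with TEAD but no AP-1 letters, had 14 and 7 fragments with fold enrichments of 5.78 and 4.82. In both non-SMC lines these regions thus stood over a low background, and no peak was listed there in SMC line 1 or in SMC line 2.

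Motifs were counted within 100 bp of the summit. The AP-1 letters TGANTCA stood near 8.91%, 5.16%, 20.2% and 18.3% of the members of the 4 libraries, beside 6.70%, 7.09%, 28.7% and 22.4% of the other peaks of these lists. The TEAD letters GGAATG stood near 14.9%, 9.34%, 16.0% and 18.3% of the members, beside 10.3%, 10.6%, 15.0% and 13.6%. An E-box stood near 65.3%, 72.0%, 61.3% and 59.6%, beside 70.5%, 72.3%, 68.2% and 68.0%. The E2F letters stood near 4.95%, 3.44%, 5.04% and 2.75%, beside 3.54%, 2.67%, 2.91% and 2.59%. The median GC content around member summits was 54.7%, 54.2%, 53.2% and 53.2%, which is above the 51.2%, 50.2%, 49.3% and 48.3% of the other peaks in each list. Among the regions called in 1 type only, the AP-1 letters stood near 5 of 12 non-SMC-only and 2 of 26 SMC-only summits, and an E-box near 7 and 23. The summits used were those of non-SMC line 1 and SMC line 2. The shares over all such regions of the genome were not counted, so no difference from them can be read here. Summits within 3 kb of a gene start made up 17.2% of the members in SMC line 2 and 33.7%, 33.6% and 32.1% in SMC line 1 and non-SMC lines 1 and 2.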

How the data were processed

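ATAC-seq was performed on 4 mouse cell lines, and 1 peak list per library was analyzed. The authors mapped reads to mm10 with Bowtie2 2.3.4 and called peaks per library with MACS2 2.1.1, whose settings are not given in the sources used here. The fold enrichment that was deposited is the ratio of pileup over local background. The authors also deposited −log10 p-values and q-values and a score, which was not used. These values depend on depth, which the lists do not state. Pileup and background were recovered by search over whole pileups with 1 added to both and p as the upper Poisson tail. On simulated peaks the search was tested before use. Genes are GENCODE M21, starts are the 5′ end, promoters are 6 kb centred on it, and regions are merged lists (overlap of at least 1 base). Blocks are runs of peaks in the stretch and 300 kb on each side with a ratio of at least 5 and gaps of up to 2 lower peaks. The rule took the longest run, and the second was added after the data were seen. The genes named are *Id3*, *E2f2*, those of the stretch called in 1 type only, those at the edges, those nearest the 10 members of SMC line 2 with the highest fold enrichment, and the fixed lists. Other genes of the stretch given with values (*Asap3*, *Fuca1*, *Ifnlr1*, *Il22ra1*, *Tcea3* and *Grhl3*) were chosen after their values were seen. Some genes that this rule takes in are not reported here. The members and lists were chosen with earlier results of these data known. Alternatives were a limit on −log10 q (at least 5), an equal number of top peaks per list, peaks rescaled to the lowest depth, other windows, ratio limits and overlaps, and leaving out each library. Python 3.11.15, numpy 2.4.6, pandas 2.3.3 and numba 0.67.0 were used.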

Additional observations from a re-analysis of the deposited data

Results flagged for a closer look

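The 2 line pairs moved in opposite directions in 3 measures, and these differences were not tested. The number of peaks in the stretch, SMC minus non-SMC, was -18 in line pair 1 and 298 in line pair 2. The number of promoters of the stretch with a peak differed by -3 and 2. The share of members with a −log10 q of at least 5 differed by -27.0 percentage points in line pair 1 and by 24.4 in line pair 2. Over all listed peaks the log2 density ratio and the median background ratio were higher in the SMC line of both pairs, but in line pair 1 the density ratio was lower in the SMC line under a −log10 q of at least 5 (0.869 against 1.96) and against the rest of chromosome 4 (2.11 against 2.79). Over all listed peaks the median fold enrichment was lower in the SMC line of both.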

How the results depend on the processing

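Both edges of block 1 stayed at the same summits with a ratio of at least 3 or 10 and with no gap allowed, and so did those of block 2. The density of SMC line 2 relative to the rest of the genome was 12.5 for peaks of −log10 q 5 or more, 8.61 for an equal number of top peaks per list, 10.9 after scaling to the lowest depth and 6.04 against the rest of chromosome 4. For SMC line 1 and non-SMC lines 1 and 2 it was 0.869, 1.96 and 1.09 under that limit on q, 1.70 to 2.52 in the next 2 settings, and 2.11, 2.79 and 2.41 against chromosome 4. The median background ratio was 47.2 over the median background of the library, 58.9 under the same limit on q, and 46.4, 56.5 and 54.2 in windows of 100, 50 and 200 kb. Under that limit the median fold enrichment was 1.87, 17 promoters had a peak in SMC line 2, and 16 members of SMC line 2 overlapped a peak of another list, against 116 with all peaks and 44 with a reciprocal overlap of 50%. Around SMC line 2 summits the median GC content was 54.5% with 50 bp on each side. The difference of 0.88 between SMC and non-SMC lines lay between 0.25 and 1.51 when each library was left out, the lowest value being that without SMC line 2, and between 0.46 and 1.37 under the other settings. As a mean within line pairs (replicate block) it was again 0.88. The cause of these shifts was not tested. The lists hold called peaks alone, so bases without a peak, depth between peaks and edges finer than the distance between neighbouring peaks could not be measured. With 1 library per line, a property of the line and one of its library cannot be told apart.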
